A study of Mus musculus with 6 samples.

Results

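The 32 genes described here encode the transcription factors that drive lipid synthesis, the proteins that process and restrain them, and enzymes that build cholesterol and fatty acids. They were chosen by symbol from what their products do, and each symbol matched a row among the 49592 genes of the expression table. All 32 also passed the filter on low values, which left 12770 genes to test. By role they comprise 5 SREBP factors and regulators, 7 enzymes of the mevalonate part of the pathway, 11 enzymes from squalene to cholesterol, 1 sterol carrier, and 8 enzymes of fatty acid synthesis and desaturation.

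Poly(A) RNA was sequenced from C2C12, a line of mouse myoblasts that join into myotubes with many nuclei once serum is reduced. Cells were expanded in medium with 10% fetal bovine serum and differentiated in 2% horse serum for 3 days. One group then received TWEAK, a cytokine of the TNF family, at 10 ng/ml for 12 h, and the other was left untreated, so the low serum was common to both. Each group had 3 libraries, numbered by trial, and the study asked which genes respond to TWEAK as myoblasts fuse. The labels do not say whether the trials were separate cultures, so the p-values reflect only the scatter among these 6 libraries, which may in part be technical.

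Cholesterol is built from acetyl-CoA through mevalonate and squalene, and fatty acids are built from the same acetyl-CoA through malonyl-CoA. The genes of both routes are classical targets of the SREBP transcription factors, which SCAP carries from the endoplasmic reticulum to the Golgi for cleavage when membrane sterol is low. INSIG proteins hold SCAP and its cargo in the endoplasmic reticulum when sterol is plentiful, and the liver X receptor can raise Srebf1 and Scd1 in addition. In muscle cells these routes supply membrane for growth and fusion.

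The libraries held 29968040 to 40905905 reads each, as recovered from the deposited values. Expression is given as FPKM, in which counts are scaled for the length of a gene and the depth of a library, so levels can be compared between genes. The 8 myotube markers were all expressed, with summed levels of 8770 to 9795 FPKM in the TWEAK libraries and 9561 to 10644 in the untreated ones. Of these markers, embryonic myosin Myh3 and titin (Ttn) fell with TWEAK (limma adjusted p = 0.00615 and 0.0301) and 0 rose. The TWEAK libraries lay wholly above the untreated ones for 3 of the 8, Myog, Mymk and Des. Their log2 differences of 0.23, 0.16 and 0.20 did not pass. They lay wholly below for 3, Myh3, Ttn and Acta1, and Acta1 did not pass (log2 difference -0.26, limma adjusted p = 0.182). Ckm was also at -0.26, with overlap (0.162). The median log2 difference of the 8 markers was -0.20, with 3 above 0 and 5 below. Of 8 adipocyte markers, Plin1 and Cfd were at 0 in every library, and the sums were 7.87 to 10.1 FPKM with TWEAK and 9.28 to 10.6 without. The macrophage and endothelial marker sums did not exceed 1.63 and 0.0722 FPKM in any library, with Adgre1 at 0 in all. In such bulk RNA, a smaller share of cells of a type and less RNA per cell cannot be told apart.

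In untreated myotubes the mean levels of the 32 members ran from 7.14 FPKM for the carboxylase Acaca to 512 for the desaturase Scd2, with a median of 52.9. With TWEAK, 1 of the 32 members fell, the stearoyl-CoA desaturase Scd1, and 0 rose (limma on log2(FPKM + 1), adjusted p under 0.05). Among all tested genes the same test called 15.1%, with 8.98% higher and 6.10% lower, so the members' count lay below the share of all genes. At an unadjusted p of 0.05 the counts were 1 higher (Scap) and 3 lower (Scd1, Scd2 and Ebp), against 30.3% of all genes in either direction. The authors' deposited table, which rests on their own fit, lists the same 4 genes below an adjusted p of 0.05, 1 higher and 3 lower, against 20.6% of the genes it adjusted (11.2% higher and 9.38% lower). With limma-voom on the recovered reads, Scd1 was again the only member called, against 16.6% of all genes. The members' median log2 fold change was 0.0032, beside 0.01 over all tested genes, with 16 members above 0 and 16 below. Member estimates ran from -0.41 for Scd1 to 0.19 for Acat2.

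For the members that did not pass, the intervals give the size of change that the data allow. The 95% interval of the log2 fold change included 0 for 28 of the 32 members. It lay wholly within 0.5 of 0 for 27 members and wholly within 0.25 of 0 for 9. Among the 31 members that did not pass, the widest bounds were -0.59 for the elongase Elovl6 and 0.61 for the thiolase Acat2. Changes up to that size in these 2 genes lay within the error of this fit, which leaves out the trial number. With the trial number as a block, the intervals were -0.27 to 0.01 for Elovl6 and 0.06 to 0.33 for Acat2.

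**Figure D1:**
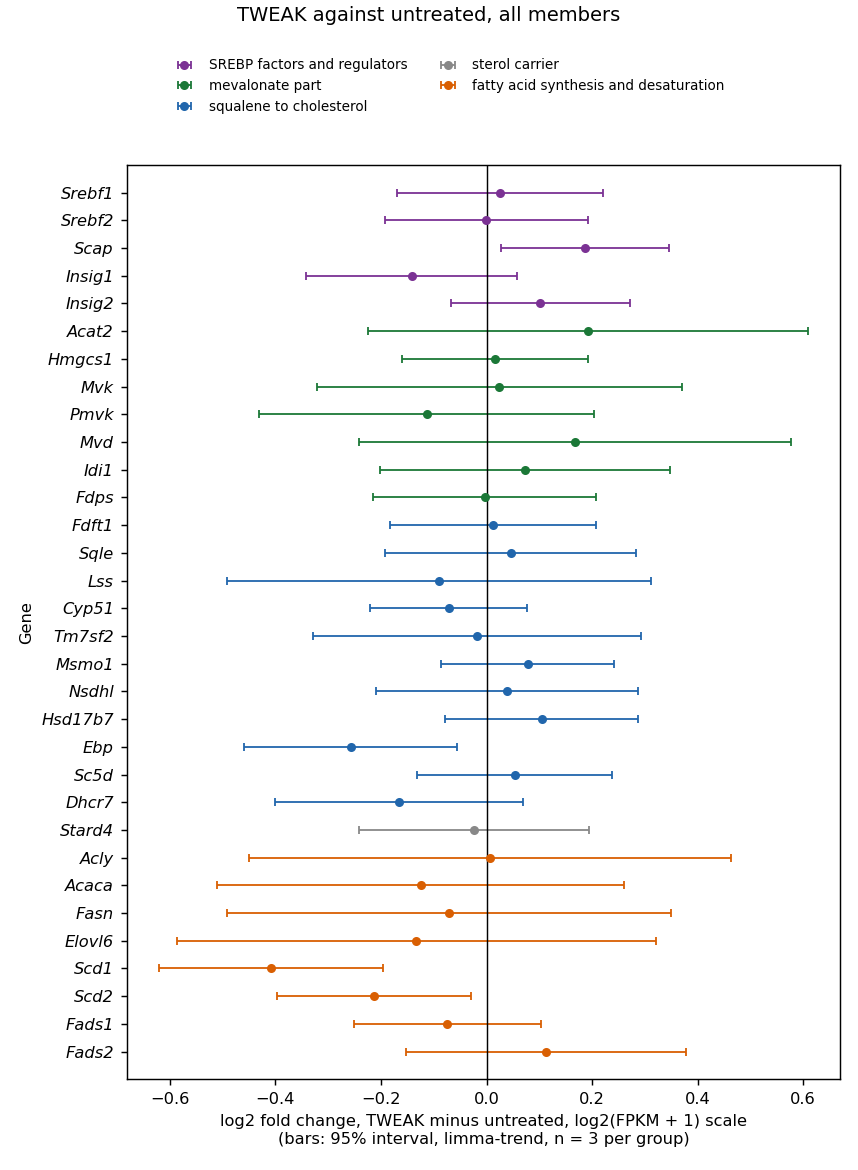
Log2 fold change (TWEAK minus untreated, log2(FPKM + 1) scale) of each of the 32 members, grouped by role, with 95% limma intervals from 3 libraries per group. The interval of Scd1 lies farthest below 0, and those of 28 members include 0.

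Promoter sequences are shown for 5 members, in genes from each route that the results return to. Each holds a match to a motif named below, but only that of Hmgcs1 matches the sterol element. Fasn has no match to the Sp1 box. RefSeq windows on build GRCm38.p6, from 250 bases before to 50 bases after the start, were found for 25 of the 32 members, in 33 windows. The members without a window were Fdps, Fdft1, Sqle, Scd1, Scd2, Fads1 and Stard4. Each line gives the 250 bases before the start, 5′ to 3′ on the gene's strand. Capitals mark a match on either strand to the sterol regulatory element TCACNCCAC, to the NF-Y box CCAAT or to the Sp1 box GGGCGG, so a match on the other strand appears as its reverse complement. Adjoining matches can overlap, as 2 NF-Y boxes of Fasn do.
Hmgcs1: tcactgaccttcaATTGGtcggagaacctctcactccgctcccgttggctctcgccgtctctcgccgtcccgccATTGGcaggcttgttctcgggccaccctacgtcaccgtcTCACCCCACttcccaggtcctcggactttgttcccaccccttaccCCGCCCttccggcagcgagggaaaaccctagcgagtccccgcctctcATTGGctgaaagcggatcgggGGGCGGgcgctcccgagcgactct
Cyp51: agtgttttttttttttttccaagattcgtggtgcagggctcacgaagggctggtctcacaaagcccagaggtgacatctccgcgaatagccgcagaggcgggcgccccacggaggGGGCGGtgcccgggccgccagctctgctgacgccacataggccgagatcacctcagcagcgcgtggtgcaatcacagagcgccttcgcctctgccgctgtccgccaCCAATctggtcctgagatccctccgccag
Fasn: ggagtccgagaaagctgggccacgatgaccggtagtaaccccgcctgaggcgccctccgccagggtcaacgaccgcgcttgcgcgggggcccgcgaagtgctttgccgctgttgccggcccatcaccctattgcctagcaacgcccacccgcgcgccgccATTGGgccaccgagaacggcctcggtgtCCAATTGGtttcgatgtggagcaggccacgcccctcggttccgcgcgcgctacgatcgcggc
Mvd: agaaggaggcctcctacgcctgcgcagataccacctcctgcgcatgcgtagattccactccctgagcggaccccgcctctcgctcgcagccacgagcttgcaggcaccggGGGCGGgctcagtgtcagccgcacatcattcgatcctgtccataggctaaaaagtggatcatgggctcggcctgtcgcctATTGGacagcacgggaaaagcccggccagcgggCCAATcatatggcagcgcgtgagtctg
Ebp: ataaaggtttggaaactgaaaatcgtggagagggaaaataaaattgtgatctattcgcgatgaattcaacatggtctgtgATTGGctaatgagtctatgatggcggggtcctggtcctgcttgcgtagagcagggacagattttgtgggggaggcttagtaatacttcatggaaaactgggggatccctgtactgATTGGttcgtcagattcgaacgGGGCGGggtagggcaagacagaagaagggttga
These stretches lie at chr13:119690101-119690350 on the plus strand for Hmgcs1, and on the minus strand at chr5:4104698-4104947 for Cyp51, chr11:120824548-120824797 for Fasn, chr8:122443423-122443672 for Mvd and chrX:8193513-8193762 for Ebp.

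Within the 300-base windows, the sterol element matched in 1 of the 33 members' windows, that of Hmgcs1, where it reads TCACCCCAC. It matched in 1.24% of all 32851 windows of the table. CCAAT was found in 21 of the 33 windows (63.6%, against 37.4% of all windows) and GGGCGG in 25 (75.8%, against 35.7%). These matches describe the letters in the window only, and a window without a match says nothing about binding of the factor.

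Among the SREBP factors and their regulators, 0 of 5 members passed the test with limma, and their log2 fold changes ran from -0.14 to 0.19 with a median of 0.03. One of them, Scap, had a p under 0.05 before adjustment. Srebf2, the factor most tied to cholesterol synthesis, was at 93.3, 92.5 and 85.6 FPKM in TWEAK trials 1, 2 and 3 and at 93.2, 98.5 and 80.5 in the untreated trials. The groups overlapped, and both trial 3 libraries were the lowest of their group. The log2 fold change of Srebf2 was 0.00 with an interval of -0.19 to 0.19 (limma adjusted p = 0.998).

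Srebf1, the factor most tied to fatty acid synthesis, was at 28.6, 29.2 and 29.6 FPKM with TWEAK and at 28.3, 32.5 and 25.4 without. The TWEAK values lay close together inside the range of the untreated ones. The difference was 0.03 on the log2 scale, with an interval of -0.17 to 0.22 (limma adjusted p = 0.873). These values are for the gene as a whole, so the Srebf1 isoforms were not told apart.

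Scap, the escort protein that carries SREBP to the Golgi, was at 15.2, 15.6 and 15.6 FPKM with TWEAK and at 13.2, 14.6 and 12.7 without. All 3 TWEAK libraries lay above all 3 untreated ones, the only member with that order. Across all tested genes, 20.0% had TWEAK libraries wholly above and 15.9% wholly below, 35.9% in either direction, while among the members 1 lay above and 3 lay below. The means were 15.5 ± 0.256 and 13.5 ± 0.996 FPKM (SD, n = 3 per group), a 1.15-fold difference with a log2 value of 0.19 and an interval of 0.03 to 0.35, which did not pass (limma adjusted p = 0.112). With the trial number as a block the adjusted p was 0.0501, and with the block in limma-voom, run on the recovered reads, it was 0.0428.

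Insig1, an INSIG retention protein that is itself a target of SREBP, was at 103, 117 and 119 FPKM with TWEAK and at 112, 134 and 128 without. Within each trial the TWEAK library was the lower, but the groups overlapped. The log2 difference was -0.14 with an interval of -0.34 to 0.06 (limma adjusted p = 0.316). Insig2, the other retention protein, was at 32.3, 34.1 and 38.1 FPKM with TWEAK and at 31.1, 32.3 and 33.6 without, a log2 difference of 0.10 with an interval of -0.07 to 0.27 (limma adjusted p = 0.399). Insig2 was the only member for which trial 3 was the highest library in both groups.

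**Figure D2:**
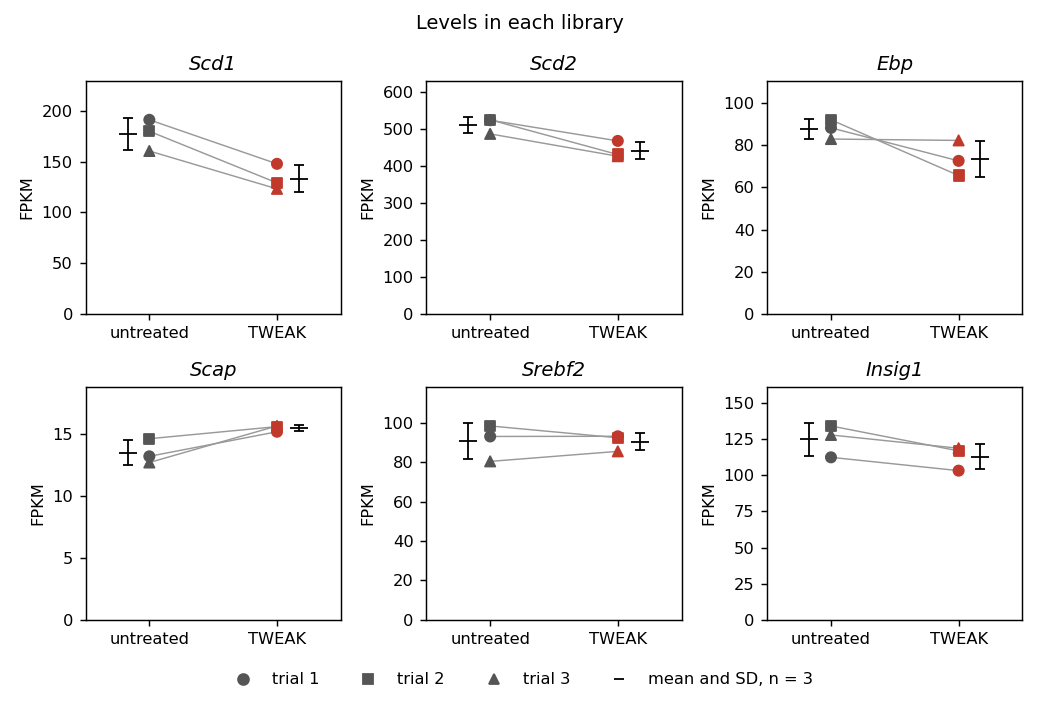
FPKM of Scd1, Scd2, Ebp, Scap, Srebf2 and Insig1 in each of the 6 libraries, with a symbol for each trial, lines joining the libraries of a trial, and bars for the group mean and SD (n = 3). The TWEAK points of Scd1, Scd2 and Ebp lie below all untreated points, those of Scap lie above, and those of Srebf2 and Insig1 overlap the untreated range.

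In the mevalonate part, 0 of 7 members passed in the comparison with limma, and 0 had a p under 0.05 before adjustment. Their log2 fold changes had a median of 0.02 and ran from -0.11 (Pmvk) to 0.19 (Acat2). Hmgcs1, which condenses acetoacetyl-CoA to HMG-CoA, was at 173, 178 and 155 FPKM with TWEAK and at 175, 165 and 159 without. The ranges overlapped almost fully, and the log2 difference of Hmgcs1 was 0.02 with an interval of -0.16 to 0.19. Fdps, which makes farnesyl diphosphate, was at 153, 144 and 149 FPKM with TWEAK and at 162, 158 and 129 without, again with overlap. For Fdps, 26.2% of the 50-base stretches of its transcripts also occur in transcripts of other genes (GENCODE reference), so its reads could be split between copies and its level is uncertain.

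Acat2, the cytosolic thiolase that makes acetoacetyl-CoA, was at 72.8, 70.9 and 49.6 FPKM with TWEAK and at 66.7, 60.9 and 41.9 without. The groups overlapped, with both trial 3 libraries low, and the TWEAK library was the higher in 3 of 3 trials, by ratios of 1.09, 1.16 and 1.18. The log2 difference of 0.19 did not pass without the block (limma adjusted p = 0.527), and it passed with the trial number as a block (limma adjusted p = 0.0356). With the block, 1 member was higher and 2 were lower, against 15.4% and 12.5% of all tested genes. The level of Acat2 is uncertain as well, since 39.1% of its 50-base stretches are shared with its neighbour Acat3. Acat3 itself was at 0.217 FPKM with TWEAK and 0.218 without.

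The remaining mevalonate enzymes were Mvk and Pmvk, which phosphorylate mevalonate in turn, the isomerase Idi1, and Mvd, which is described further below. Mvk was at 28.2, 24.3 and 21.2 FPKM with TWEAK and at 27.4, 27.3 and 18.4 without, a log2 difference of 0.02 with an interval of -0.32 to 0.37. Pmvk was at 45.1, 42.2 and 37.5 FPKM with TWEAK and at 51.8, 50.4 and 34.8 without, a log2 difference of -0.11 with an interval of -0.43 to 0.20. In both genes the groups overlapped and trial 3 held the lowest library of each. Idi1 was at 24.3, 23.1 and 18.2 FPKM with TWEAK and at 24.1, 18.8 and 19.2 without, a log2 difference of 0.07 with an interval of -0.20 to 0.35. Of the 50-base stretches of Idi1, 17.7% are shared, so its level is uncertain.

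From squalene to cholesterol, 0 of 11 members passed with limma, 1 had a p under 0.05 before adjustment, and the median log2 fold change was 0.01, with a range of -0.26 to 0.10. Ebp, the sterol isomerase that shifts a double bond in the ring system late in the route, was at 72.6, 65.7 and 82.3 FPKM with TWEAK and at 88.3, 92.1 and 83.0 without. All TWEAK libraries were below all untreated ones, but in trial 3 the pair nearly met, with a ratio of 0.992 against 0.822 and 0.713 in trials 1 and 2. The means were 73.5 ± 8.38 and 87.8 ± 4.59 FPKM (SD, n = 3 per group), 1.19-fold lower with TWEAK, with a log2 value of -0.26, an SE of 0.09 and an interval of -0.46 to -0.06. Ebp did not pass (limma adjusted p = 0.0860). It passed with the trial block (0.0331), with limma-voom and the block (0.00814) and after quantile normalization (0.0319). It also passed without TWEAK replicate 3 (0.0220) and in trials 1 and 2 alone (0.0185). Under the other alternatives it did not pass, with 0.0661 for limma-voom without the block and up to 0.284 when single libraries were left out.

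The other enzymes of this route showed overlapping groups. Cyp51, the lanosterol demethylase, was at 117, 109.9 and 115 FPKM with TWEAK and at 122, 123 and 115 without. Its log2 difference was -0.07 with an interval of -0.22 to 0.08, among the narrowest of the members. Dhcr7, which reduces 7-dehydrocholesterol to cholesterol, had the largest difference below 0 after Ebp, a log2 value of -0.17 with an interval of -0.40 to 0.07. Hsd17b7, the ketosteroid reductase of the demethylation complex, had the largest above 0, with a log2 value of 0.10 and an interval of -0.08 to 0.29. Sqle, the squalene epoxidase, was at 75.6, 75.3 and 66.6 FPKM with TWEAK and at 72.7, 79.3 and 59.6 without. The first enzyme committed to sterols, the squalene synthase Fdft1, was at 69.8, 67.0 and 61.8 FPKM with TWEAK and at 70.5, 68.7 and 58.3 without, a log2 difference of 0.01. Its gene model overlaps that of the protease Ctsb by position, and 9.38% of its 50-base stretches are shared, so its level is uncertain.

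The enzymes that remove methyl groups and reduce double bonds of the sterol ring also showed small differences. Msmo1, the sterol methyl oxidase, ranged from 80.2 to 86.7 FPKM with TWEAK and from 74.7 to 85.6 without, a log2 difference of 0.08 with an interval of -0.09 to 0.24. Nsdhl, the dehydrogenase that works with it, was at 92.0, 82.8 and 75.6 FPKM with TWEAK and at 91.2, 84.0 and 69.2 without, a log2 difference of 0.04 with an interval of -0.21 to 0.29. In both genes the groups overlapped and trial 3 was lowest. Tm7sf2, a sterol reductase, was at 15.4, 14.4 and 14.0 FPKM with TWEAK and at 17.9, 15.9 and 11.3 without. Tm7sf2 overlaps the neighbouring gene Vps51, with 9.87% of its 50-base stretches shared, so its reads cannot be fully told apart. Sc5d, the lathosterol desaturase, was at 27.1, 27.2 and 23.2 FPKM with TWEAK and at 25.4, 25.9 and 23.1 without, a log2 difference of 0.05 with an interval of -0.13 to 0.24. Stard4, a carrier that moves sterol between membranes, was at 14.4, 15.5 and 12.0 FPKM with TWEAK and at 15.4, 13.8 and 13.3 without, a log2 difference of -0.02.

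Among the 8 enzymes of fatty acid synthesis and desaturation, 1 fell and 0 rose with limma, and the median log2 fold change was -0.10, the lowest of the role groups with more than 1 member. Scd1, which puts the first double bond into stearate and palmitate, was at 148, 129 and 123 FPKM with TWEAK and at 192, 180.3 and 161 without. Every TWEAK library was below every untreated one, and within the trials the ratio of TWEAK to untreated was 0.773, 0.717 and 0.767. The means were 134 ± 12.9 and 178 ± 15.6 FPKM (SD, n = 3 per group), 1.33-fold lower with TWEAK. The log2 fold change was -0.41 with an SE of 0.09 and an interval of -0.62 to -0.20 (limma adjusted p = 0.0197), and the authors' deposited table gives -0.41 for Scd1 with an adjusted p of 9.15e-05.

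The direction of Scd1 was the same whichever library was left out, with log2 fold changes of -0.48 to -0.35. The call was lost without TWEAK replicate 2 (limma adjusted p = 0.0832), without untreated replicate 1 (0.0797), without untreated replicate 2 (0.0749), and with no filter on low values (0.0850). With the trial block it stood at an adjusted p of 0.000636. The adipogenic receptor Pparg, an adipocyte marker at low level here, also fell, from a mean of 2.93 to 1.94 FPKM (limma adjusted p = 0.0245). The other 2 tested adipocyte markers did not pass, with log2 differences of 0.11 for Cebpa and -0.31 for Lpl. Cebpa was higher with TWEAK in 3 of 3 trials. Lpl was lower within every trial, at ratios of TWEAK to untreated of 0.822, 0.603 and 0.672. With the trial block, Pparg and Lpl passed (limma adjusted p = 0.00143 and 0.0181) and Cebpa did not (0.267). Of the 8 myotube markers, 5 had log2 differences below 0 and 3 above, with Myh3, Ttn and Acta1 wholly below and Myog, Mymk and Des wholly above, as given above. The part of these marker changes in the Scd1 result was not tested.

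Scd2, the desaturase with the highest level of all members, was at 468, 431 and 426 FPKM with TWEAK and at 524, 525 and 487 without. All TWEAK libraries were below all untreated ones, and the ratios within trials were 0.893, 0.821 and 0.876. The means were 442 ± 22.8 and 512 ± 21.8 FPKM (SD, n = 3 per group), 1.16-fold lower with TWEAK, with a log2 value of -0.21, an SE of 0.08 and an interval of -0.40 to -0.03. Scd2 did not pass (limma adjusted p = 0.115, and 0.0726 with the trial block), although it passed when limma-voom was run on recovered reads with the block (0.0275).

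Scd1 and Scd2 are neighbours. On build GRCm39, Scd2 lies at chr19:44282113-44295303 and Scd1 at chr19:44382894-44396318, with 87590 bases between them. Between and beside them lie Scd4 and Scd3, for which the libraries held 40 and 1 reads with TWEAK and 51 and 0 without, summed over each group. Scd1 held 61226 and 90744 reads by the same sums, and Scd2 228706 and 296444. Of their 50-base stretches, 4.56% and 3.97% are shared with other genes.

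The fatty acid desaturases that act on polyunsaturated chains did not pass. Fads1, the delta-5 desaturase, was at 39.3, 37.5 and 36.8 FPKM with TWEAK and at 41.8, 42.5 and 35.8 without, a log2 difference of -0.07. Fads2, the delta-6 desaturase, was at 79.1, 69.6 and 62.8 FPKM with TWEAK and at 71.5, 69.9 and 54.5 without, a log2 difference of 0.11. Both pairs of groups overlapped, and in both genes trial 3 held the lowest library of each group.

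Many of the members also differed between trials. An F test of the trial number in the limma fit with the block, chosen after the values were seen, called 10 of the 32 members at an adjusted p under 0.05, against 5.47% of all tested genes. The same fit called 3 members for TWEAK, and with no filter on low values the trial test called 0 members. The 10 were Acly, Acaca, Fasn, Elovl6 and Fads2 of the fatty acid route, Acat2, Mvk, Pmvk and Mvd of the mevalonate part, and Lss of the squalene part. In all 10, both trial 3 libraries were the lowest of their group, which together with the call held for 2.04% of all tested genes. More widely, trial 3 was lowest in both groups for 23 of the 32 members, against 18.9% of all tested genes. By role these were 8 of 8 fatty acid enzymes, 5 of 7 mevalonate enzymes, 8 of 11 enzymes from squalene on, Stard4, and 1 of 5 SREBP factors and regulators.

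Acly, the citrate lyase that supplies cytosolic acetyl-CoA, was at 93.4, 81.8 and 57.6 FPKM with TWEAK and at 91.4, 84.3 and 56.3 without. The libraries of a trial lay close to each other, and trial 3 lay far below the other two in both groups. The trial test gave a limma adjusted p of 0.000800, while the treatment difference was 0.01 on the log2 scale. Its interval was -0.45 to 0.46 without the trial block and -0.13 to 0.14 with it. Fasn, the fatty acid synthase, was at 40.8, 39.9 and 26.5 FPKM with TWEAK and at 40.7, 43.5 and 28.4 without (limma adjusted p of the trial test 0.00115). Acaca, the acetyl-CoA carboxylase that makes malonyl-CoA, was at 7.64, 7.41 and 4.59 FPKM with TWEAK and at 8.02, 7.65 and 5.76 without (0.00737). Of the 50-base stretches of Acaca, 30.4% are shared with other genes, so its level is uncertain.

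The chain-lengthening enzyme Elovl6 was at 13.0, 11.2 and 7.29 FPKM with TWEAK and at 13.6, 12.3 and 8.60 without (limma adjusted p of the trial test 0.00105). Here, too, trial 3 was lowest in both groups, and TWEAK was the lower library within every trial. Mvd, which decarboxylates mevalonate diphosphate, was at 66.6, 63.3 and 49.4 FPKM with TWEAK and at 65.5, 57.9 and 38.4 without (0.00442). The treatment difference of Mvd was 0.17 on the log2 scale, with an interval of -0.24 to 0.58 (limma adjusted p = 0.581, and 0.101 with the trial block). TWEAK was the higher library of Mvd within every trial. Lss, which closes squalene epoxide into lanosterol, was at 21.1, 20.7 and 13.4 FPKM with TWEAK and at 20.7, 22.5 and 15.4 without (0.00260). Over the 10 members, trial 3 stood at 0.602 to 0.860 of the mean of trials 1 and 2 with TWEAK, and at 0.623 to 0.771 without.

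The untreated trial 3 library had the most reads of all (40905905), while the TWEAK trial 3 library had 30081373, near the fewest. The mitochondrial share of reads was 2.58% and 2.88% in the trial 3 libraries and 2.12% to 2.27% in the others. Whether that share has a part in the lower levels of these members was not tested. The labels name trials without saying what a trial was, so a difference between trials cannot be assigned to culture, extraction or library.

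**Figure D3:**
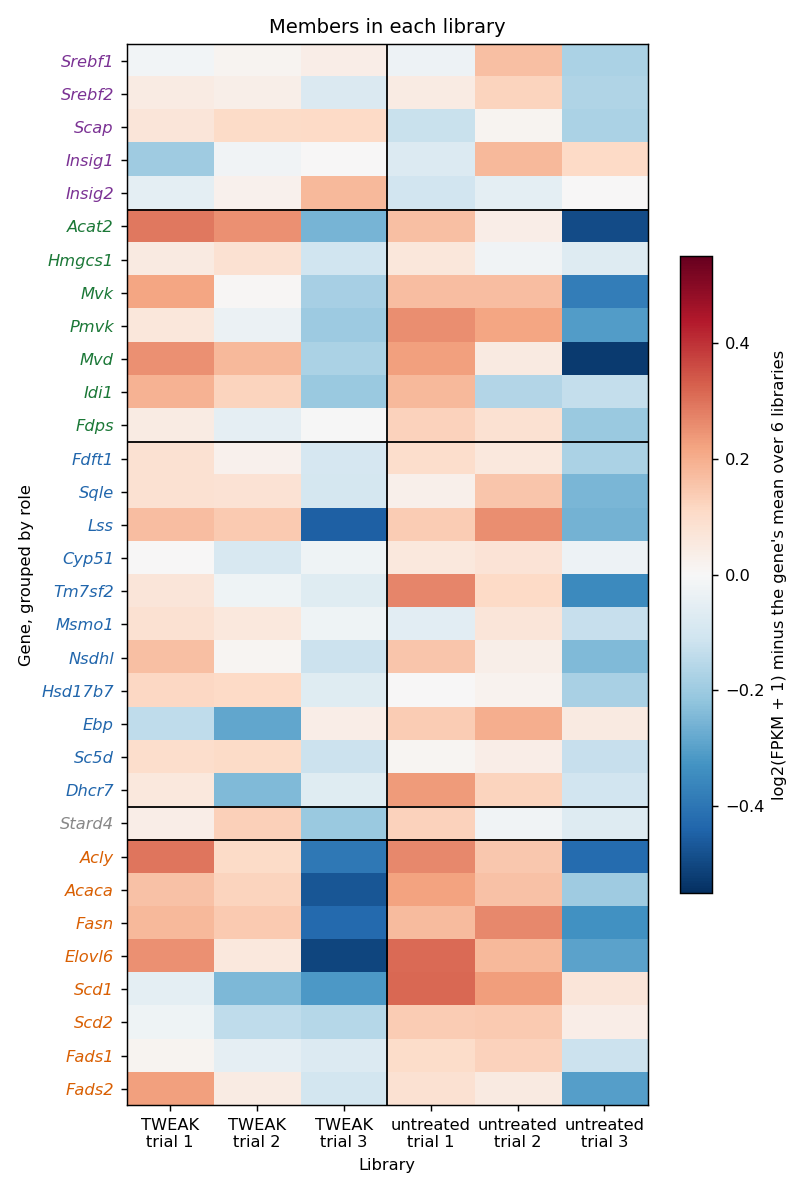
Deviation of each member's log2(FPKM + 1) from its mean over the 6 libraries, with members in rows by role and libraries in columns. For 23 members the trial 3 library is the lowest of its group in both blocks of columns, while among the 5 SREBP factors and regulators that holds for 1.

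**Figure D4:**
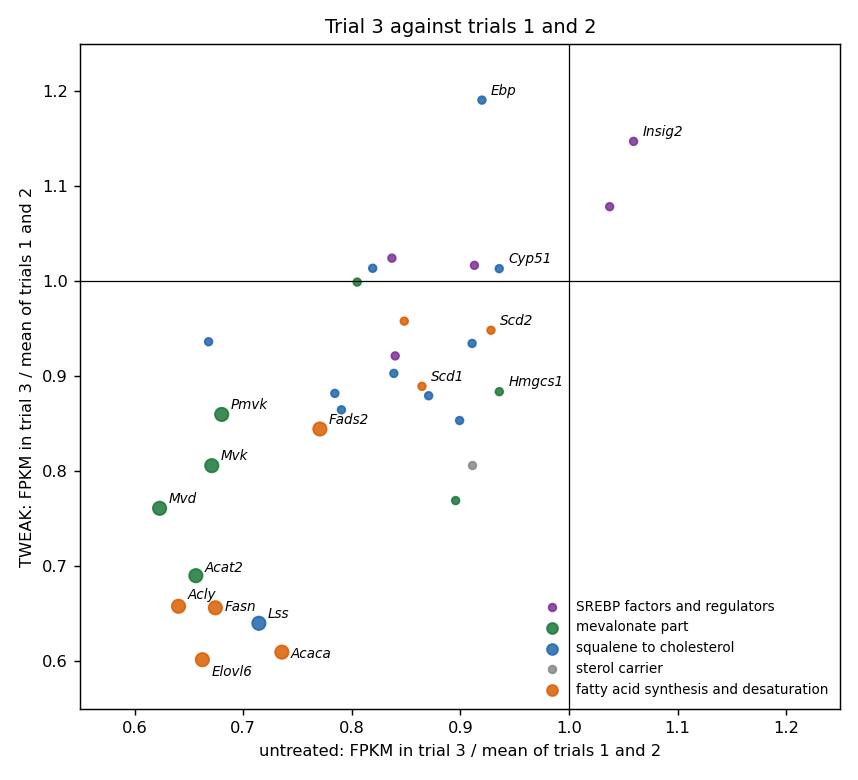
FPKM in trial 3 divided by the mean FPKM of trials 1 and 2, for untreated libraries (x axis) and TWEAK libraries (y axis), with 1 point per member coloured by role. Large points are the 10 members that the trial test called, which lie at 0.602 to 0.860 on the y axis and 0.623 to 0.771 on the x axis.

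The wider pathway was read from 57 other genes of sterol and fatty acid metabolism, of which 52 were tested. With limma, 1 of the 52 rose and 3 fell, beside 8.98% higher and 6.10% lower among all genes, so the share that fell was near that of all genes. At an unadjusted p of 0.05 the counts were 4 and 8 of 52, beside 30.3% of all genes in either direction. With the trial block 6 of 52 rose and 8 fell, beside 15.4% and 12.5% of all genes. By group, the genes called were 1 of 9 in SREBP processing and sterol-regulated degradation, 0 of 14 in uptake, efflux and esterification, 0 of 8 in the isoprenoid branches, and 3 of 21 in lipogenesis.

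Tmem97, a sterol-responsive membrane protein known as the sigma-2 receptor, was at 35.1, 37.8 and 42.5 FPKM with TWEAK and at 26.5, 31.1 and 29.4 without. The groups did not overlap, and the log2 fold change was 0.39 with an SE of 0.09 (limma adjusted p = 0.0178). Prkaa2, the catalytic alpha-2 subunit of AMPK, the kinase that inhibits acetyl-CoA carboxylase, was at 3.56, 2.97 and 3.29 FPKM with TWEAK and at 4.86, 4.70 and 5.79 without. Again the groups did not overlap, with a log2 fold change of -0.52 and an SE of 0.09 (limma adjusted p = 0.00770). Acsl3, which activates fatty acids as CoA esters, was at 124, 110.2 and 124 FPKM with TWEAK and at 148, 141 and 146 without, a log2 fold change of -0.28 with an SE of 0.07 (limma adjusted p = 0.0321). Marchf6, a ubiquitin ligase that marks sterol enzymes for degradation, was at 28.9, 27.2 and 26.1 FPKM with TWEAK and at 33.4, 31.8 and 35.0 without, a log2 fold change of -0.28 with an SE of 0.07 (limma adjusted p = 0.0256).

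With no filter on low values all 4 calls were lost, with limma adjusted p of 0.0757 for Tmem97, 0.0514 for Prkaa2, 0.0787 for Acsl3 and 0.0607 for Marchf6, at the same log2 fold changes. The call of Prkaa2 held without any single library, with adjusted p up to 0.0369 and log2 fold changes of -0.56 to -0.44. The other 3 calls were lost without some single libraries, while their log2 fold changes stayed at 0.32 to 0.45 for Tmem97, -0.31 to -0.22 for Acsl3 and -0.31 to -0.24 for Marchf6. Tmem97 was lost without TWEAK replicate 2 (limma adjusted p = 0.0597), without untreated replicate 1 (0.0718) and in trials 1 and 2 alone (0.0523). Acsl3 was lost without TWEAK replicate 2 (0.148) and untreated replicates 1, 2 and 3 (0.119, 0.0740 and 0.0803). Marchf6 was lost without TWEAK replicates 2 and 3 (0.102 and 0.0532), without untreated replicates 1 and 3 (0.0866 and 0.0794) and in trials 1 and 2 alone (0.0843).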

How the data were processed

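The deposited table lists genes with positions on GRCm39. Per the submitters' processing notes, the tools were DESeq2 1.22.2, HTSeq 0.6.1p2, STAR 2.6.0c and Trim Galore 0.5.0. How they were set, which annotation served and whether strand was used is not given in the sources used here. Per the file headers, the authors gave FPKM per library, a mean normalized signal per gene, a log2 fold change with its standard error, a test score and unadjusted and adjusted p-values. Since 2337 genes with no read in any of the 6 libraries have a deposited mean above 0, further libraries entered the authors' fit and were not analysed here. The number of per-sample columns without a sample was 0.

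Whole reads were recovered from the FPKM, with all 126386 non-zero values whole to a relative tolerance of 1e-06. For 261 tested genes a common factor was chosen from the deposited mean, which is an assumption. The main test was limma-trend on log2(FPKM + 1) with group as its only term, keeping genes whose FPKM averaged 0.5 or more. P-values were two-sided and Benjamini-Hochberg adjusted over all 12770 genes at 0.05 (limma 3.58.1, R 4.3.3). Fold changes on this scale understate those of low genes. Folds are ratios of mean FPKM. Scripts were tested on simulated data, and Python 3.11.15 with pandas 2.3.3, numpy 2.4.6 and matplotlib 3.10.9 did the rest.

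Libraries with the same trial number were treated as pairs in the fits with the trial block and in the ratios within trials. The main test left the pairing out. Within trials 1, 2 and 3, the 2 libraries' departures from their group means had correlations of 0.473, 0.218 and 0.434 across genes, which are not independent replicates. Between libraries of different trial numbers the correlations ran from -0.406 to -0.0200. The trial numbers come from the labels, which do not say that libraries with the same number were matched. That they are pairs was taken from these correlations. Alternatives were another pseudocount, other filters, quantile or median scaling, limma-voom on the recovered reads, the trial block, and leaving out each library. The block with voom, trials 1 and 2 alone, and the trial test were added after the values were seen. Values in each library were given, by rule, for members that passed, for those whose groups did not overlap and for the SREBP and INSIG genes. Other members and genes described by library were chosen after their values were seen. The members and lists were chosen with earlier results of these data known.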

Additional observations from a re-analysis of the deposited data

How the results depend on the processing

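Across all tested genes the number called was 801 with no filter on low values, 3563 with the replicate block and 3979 with limma-voom and the replicate block, and 844 to 2101 when single libraries were left out. The members that rose numbered 1 with the replicate block and 2 with voom and the block, and 0 to 0 without single libraries. Those that fell numbered 0 with no filter, 2 after quantile normalization, 2 with the replicate block, 3 with voom and the block, 2 in trials 1 and 2 alone, and 0 to 2 without single libraries. Other genes of the pathway that rose numbered 0 with no filter, 2 with a mean FPKM of at least 1, 2 after quantile normalization, 6 with the replicate block, 5 with voom and the block, and 0 to 1 without single libraries. Those that fell numbered 0 with no filter, 5 after quantile normalization, 5 with voom, 8 with the replicate block, 10 with voom and the block, and 1 to 6 without single libraries. With the replicate block, 15.4% of all tested genes were higher and 12.5% lower. Under the other alternatives the shares of all genes by direction are not given here. The counts under those alternatives are therefore not read as a result about these genes. Members that differed between trials numbered 0 with no filter, 0 in trials 1 and 2 alone, where fewer libraries remained, and 8 to 14 without single libraries. Apart from that construction, the cause was not tested.

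Signs changed for 19 members that did not pass, among them Acat2, Mvd, Elovl6, Acaca and Fads2, whose main log2 values of 0.19, 0.17, -0.13, -0.12 and 0.11 were not the nearest to 0. After quantile normalization these were Srebf1 (-0.0069), Hmgcs1 (-0.041), Fdft1 (-0.017) and Acly (-0.033). In trials 1 and 2 alone they were Srebf1 (-0.067), Mvk (-0.061), Fdft1 (-0.023), Sqle (-0.0094), Nsdhl (-0.0038), Stard4 (0.031) and Acly (-0.0068). With equal medians they were Hmgcs1 (-0.0041), Fdft1 (-0.0087) and Acly (-0.014), and Acly was at -0.0063 with voom and -0.0027 with voom and the replicate block. Without single libraries the log2 values ran from -0.056 to 0.11 for Srebf1, -0.083 to 0.061 for Srebf2, -0.0054 to 0.37 for Acat2, -0.022 to 0.075 for Hmgcs1, -0.16 to 0.12 for Mvk, -0.054 to 0.32 for Mvd, -0.0041 to 0.19 for Idi1, -0.11 to 0.058 for Fdps, -0.072 to 0.062 for Fdft1 and -0.069 to 0.13 for Sqle. They ran from -0.24 to 0.11 for Lss, -0.20 to 0.11 for Tm7sf2, -0.072 to 0.12 for Nsdhl, -0.096 to 0.072 for Stard4, -0.20 to 0.20 for Acly, -0.25 to 0.078 for Acaca, -0.26 to 0.13 for Fasn, -0.31 to 0.086 for Elovl6 and -0.010 to 0.19 for Fads2. Scd1 kept its direction under every alternative run. Over the members' alternatives, 416 values kept direction and side of the threshold, 51 changed sign in 19 genes, 9 passed newly in 4 genes and 4 no longer passed, all for Scd1. Members held 1284 to 107699 reads per library. The parts of depth and of the spread between libraries in their error were not tested.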

Other observations

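Ch25h, which makes 25-hydroxycholesterol, an oxysterol known to hold SREBP in the endoplasmic reticulum through INSIG, was the only gene of the wider pathway that the trial test called. It was at 2.80, 3.07 and 8.66 FPKM in TWEAK trials 1, 2 and 3 and at 1.77, 2.06 and 4.62 in the untreated trials. Trial 3 was the highest library in both groups, where most members were lowest, and the TWEAK library was the higher within every trial. A highest trial 3 in both groups was common, holding for 19 of the 52 tested genes of the wider pathway and for 20.7% of all tested genes. Whether Ch25h has a part in the levels of the members was not tested. The limma adjusted p of the trial test, chosen after the values were seen, was 0.000137. The TWEAK difference in Ch25h did not pass without the block (log2 fold change 0.55, interval -0.26 to 1.36, limma adjusted p = 0.343) and passed with the trial block (0.000397).

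Several genes of sterol transport and lipogenesis did not pass the main test and passed with the trial block, which raised the share called from 15.1% to 27.9% of all genes. Npc2, which carries cholesterol out of lysosomes, was at 173 ± 22.6 FPKM with TWEAK and 142 ± 10.1 without (SD, n = 3 per group), with limma adjusted p = 0.0108 in the block fit and 0.0951 without it. Acss2, which makes acetyl-CoA from acetate, was at 7.89 ± 1.07 and 10.1 ± 0.732 FPKM (0.00450 and 0.0523). Idh1, a cytosolic source of NADPH, was at 58.8 ± 4.15 and 69.3 ± 4.66 FPKM (0.0123 and 0.0743). Lpcat3, which places polyunsaturated chains into phospholipids, was at 38.1 ± 2.86 and 44.6 ± 0.960 FPKM (0.0249 and 0.0646). Hsd17b12, a reductase of fatty acid elongation, was at 78.2 ± 1.85 and 67.4 ± 2.40 FPKM (0.0218 and 0.0504). The lipoprotein receptors Vldlr and Lrp1 were lower with TWEAK (0.0248 and 0.162 for Vldlr, 0.0338 and 0.175 for Lrp1). Pdss1 and Coq2, which act in ubiquinone synthesis, were higher (0.0337 and 0.185 for Pdss1, 0.0459 and 0.102 for Coq2). With Ch25h these are the 10 genes that gained a call.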
